A study of Homo sapiens with 8 samples.

Results

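The genes described here are 9 genes of the transforming growth factor beta (TGF-beta) pathway, out of 43317 genes on the array: the ligands TGFB1 and TGFB2, the receptors TGFBR1 and TGFBR2, the signal carriers SMAD2, SMAD3 and SMAD4, the inhibitor SMAD7 and the response gene TGFBI. They were picked by name, and the set was chosen by earlier readings of these same arrays, so the values below describe them and no test was made. All 13 probes that carry these names were read on all 8 arrays, each as 1 spot. Of the 9 genes, 6 had a single probe.

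Each array was a two-colour Agilent microarray, on which the mock RNA carried Cy3 and the RNA from the treated culture carried Cy5. PC3 cells, a prostate cancer line, were given bisamide for 24 h, bisamide for 48 h, or miR-125b-1-3p. C4-2 cells, a prostate cancer line derived from LNCaP, were given miR-199-3p. 786-O cells, a renal cancer line, were given miR-532-5p or miR-532-3p, and T24 cells, a bladder cancer line, were given miR-140-5p or miR-140-3p. Bisamide is a small molecule described as an inhibitor, and the miRNAs were delivered with a lipid reagent. All mock cells are labelled as not transfected, so the lipid reagent and the miRNA cannot be told apart on the miRNA arrays. Each group was 1 array and the treated RNA always carried the same dye, so neither the spread between cultures nor a dye effect of a probe could be measured. Bulk RNA was used, so fewer cells making a transcript and less transcript per cell cannot be told apart.

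TGF-beta ligands are secreted in a latent form, and once freed they bring together the type II receptor TGFBR2 and the type I receptor TGFBR1, which are kinases. The active receptor phosphorylates SMAD2 and SMAD3, which join SMAD4 and enter the nucleus to change transcription. SMAD7 is induced by the pathway and blocks the receptor, and TGFBI is a secreted matrix protein named for its induction by TGF-beta. In carcinoma cells the pathway is known both for growth arrest and for a shift to a mesenchymal state.

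The mature sequences of the 6 transfected strands are given because every miRNA array is defined by them. They are from RefSeq (GRCh38.p14), 5′ to 3′, with the seed (bases 2 to 8) in capitals. The label miR-199-3p names neither gene copy, and the entry for miR-199a-3p has the same sequence as that for miR-199b-3p.
miR-199a-3p: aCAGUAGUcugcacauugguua
miR-125b-1-3p: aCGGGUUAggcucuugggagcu
miR-532-5p: cAUGCCUUgaguguaggaccgu
miR-532-3p: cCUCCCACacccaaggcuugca
miR-140-5p: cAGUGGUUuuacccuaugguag
miR-140-3p: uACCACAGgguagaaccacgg
The 6 strands had 6 different seeds, so no pair of miRNA arrays shared one.

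The lines were checked against marker genes by the uncorrected Cy3 signal of the mock cells, where probes near 20 were not well above background. C4-2 held all 5 prostate luminal markers, with KLK3 at 13592, and lacked CDH2 and ZEB1. PC3 had 3 of 5 luminal markers above background on every mock, HOXB13 at 7455 to 9538 among them, but no KLK3. It had VIM, a mesenchymal filament, at 12131 to 14326. It also had 2 of 3 epithelial markers on every mock, with KRT19 at 12785 to 18251. 786-O held all 4 renal markers, which summed to 1183 to 1213. T24 had 0 of 5 urothelial markers above background in both mock readings, and their sum of 100 to 107 was like that of 786-O (106 to 111). T24 did have PAX8 at 390 to 423 and PAX2 at 551 to 619, both higher than in 786-O. The other renal markers were lower in T24. LHX1 read 91.8 to 95.4 against 545 to 576 in 786-O, and CA12 19.6 to 21.4, not above background, against 278 to 287. The urothelial label of T24 is therefore not borne out by these markers, and the line is named below as labelled. PTPRC, a leukocyte marker, read 27.3 to 36.5 in every line. The 3 PC3 mocks were not alike. EPCAM, an epithelial surface protein, read 121 and 119 in the mocks of the bisamide arrays and 476 in that of miR-125b-1-3p. LHX1, a renal lineage factor, read 158 and 121 against 29.8, and the part of this in the PC3 values below was not tested. The deposited records carry 1 mock number for both 786-O arrays and 1 for both T24 arrays, so each pair may share its mock RNA.

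TGFBI was the only member past a log2 ratio of 1.5, and it was so on 1 array. The study used that size for lower genes alone, on arrays of a miRNA that is not among these. With miR-140-5p in T24 its log2 ratio of treated over mock was 1.88, a 3.68-fold higher level, and 2 of 17624 genes measured on that array had a higher ratio. TGFBR2 was higher by 0.89 with miR-532-5p and by 0.78 with miR-140-3p, and SMAD3 was higher by 0.64 with miR-532-5p. With this processing no member was lower by more than 0.5 on any array, although TGFBI and TGFBR1 were on some arrays under other settings. SMAD2 and TGFBR1 lay between -0.18 and 0.18 on every array on which they were measured.

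**Figure D1:**
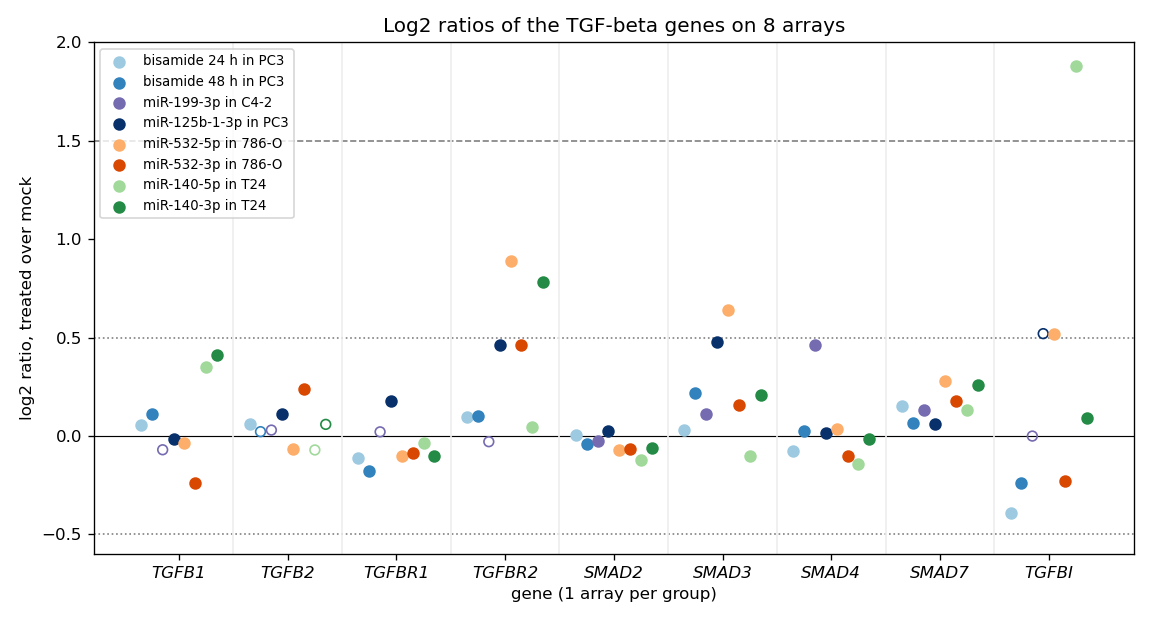
Log2 ratios of treated over mock RNA (y axis) of the 9 genes (x axis), 1 point per array, coloured by group. Filled points were well above background in both channels and open points were not, dotted lines mark 0.5 in either direction and the dashed line marks 1.5. Only TGFBI with miR-140-5p, at 1.88, lies above the dashed line.

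A gene counted as measured where both channels of its probe were well above background, which held for 63 of the 72 values of these genes. Of the others, 6 were above background in neither channel and 3 in Cy5 alone. In C4-2, TGFB1, TGFB2, TGFBR1, TGFBR2 and TGFBI were above background in neither channel. Their ratios there are therefore not given.

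Of the ligands, TGFB1, the main TGF-beta of most epithelia, was measured on 7 arrays, with its largest values in T24. Its probe covered chr19:41838142-41847802 (GRCh37, minus strand), a span that crosses introns. The other 12 probes each lay in 1 stretch of 60 bases. In T24 the uncorrected TGFB1 signal went from 196 to 395 under miR-140-5p and from 197 to 447 under miR-140-3p. These were log2 ratios of 0.35 and 0.41, which 5.17% and 2.21% of measured genes exceeded. With miR-532-3p in 786-O TGFB1 was at -0.24, and on the other 4 arrays it lay between -0.034 and 0.11. Signals and ratios differ because Cy5 was the brighter dye for 69.8% to 94.4% of measured genes on 7 arrays and for 26.4% with miR-532-5p, which the normalization takes out.

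TGFB2, a ligand that needs the coreceptor TGFBR3 to bind its receptors well, was measured on 4 arrays (chr1:218614784-218614843, plus strand). Its log2 ratio ranged from -0.067 with miR-532-5p to 0.24 with miR-532-3p, both in 786-O. The mock signals of those arrays were 62.8 and 65.8, and the treated signals were 50.2 and 97.6. On every other array neither signal passed 73.8.

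TGFBR1, the type I receptor kinase, had a dim probe at chr9:101916322-101916381 (plus strand). Its mock signals lay between 31.3 and 41.3 outside C4-2. The log2 ratios were -0.11 and -0.18 with bisamide for 24 h and 48 h, and 0.18 with miR-125b-1-3p. In 786-O they were -0.10 for the 5p strand and -0.086 for the 3p strand, and in T24 -0.036 for the 5p strand and -0.10 for the 3p strand. The values were below 0 on 6 of 7 arrays, while per array 50% to 54.6% of all measured genes were above 0. Because 50 intensity units were added to each signal, ratios of dim probes are pulled toward 0. With no offset TGFBR1 read -0.57 with bisamide for 48 h and 0.59 with miR-125b-1-3p. The scanner's own ratio was -0.51 and -0.79 with bisamide for 24 h and 48 h, -0.77 with miR-532-5p and -0.63 with miR-140-3p. Median centring turned the values of bisamide for 24 h and of both T24 arrays to 0.051, 0.051 and 0.0016.

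TGFBR2, the type II receptor that binds the ligand, was higher in treated cells on all 7 arrays on which it was measured with the processing used here. Per array, 50% to 54.6% of all measured genes were above 0. With miR-140-5p TGFBR2 read -0.0076 with the mean of both probes. When its median over the other arrays was taken off it read -0.41 there and -0.37 and -0.36 with bisamide. The probe that represents it lies at chr3:30735163-30735222 (plus strand). The uncorrected mock and treated signals were 441 and 765 with miR-532-5p, 412 and 792 with miR-532-3p, 557 and 957 with miR-140-5p, and 559 and 1750 with miR-140-3p. The mock signals within each line were nearly equal, and the treated signals differed in T24. The log2 ratios were 0.89 and 0.46 with the miR-532 strands, and 0.046 and 0.78 with the miR-140 strands. In PC3 they were 0.094 and 0.10 with bisamide and 0.46 with miR-125b-1-3p. Only 0.511% of measured genes were higher with miR-532-5p, and 0.165% were with miR-140-3p.

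The other TGFBR2 probe lay at chr3:30703057-30703116, and the array design assigns it to a predicted transcript that the RefSeq table does not list. It was dim, with mock signals of 20.9 to 33.9, and its log2 ratios were 0.085 with miR-532-5p and 0.024 with miR-140-3p. The mean of both probes was 0.49 with miR-532-5p and 0.40 with miR-140-3p, so both values past 0.5 rest on the bright probe.

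**Figure D2:**
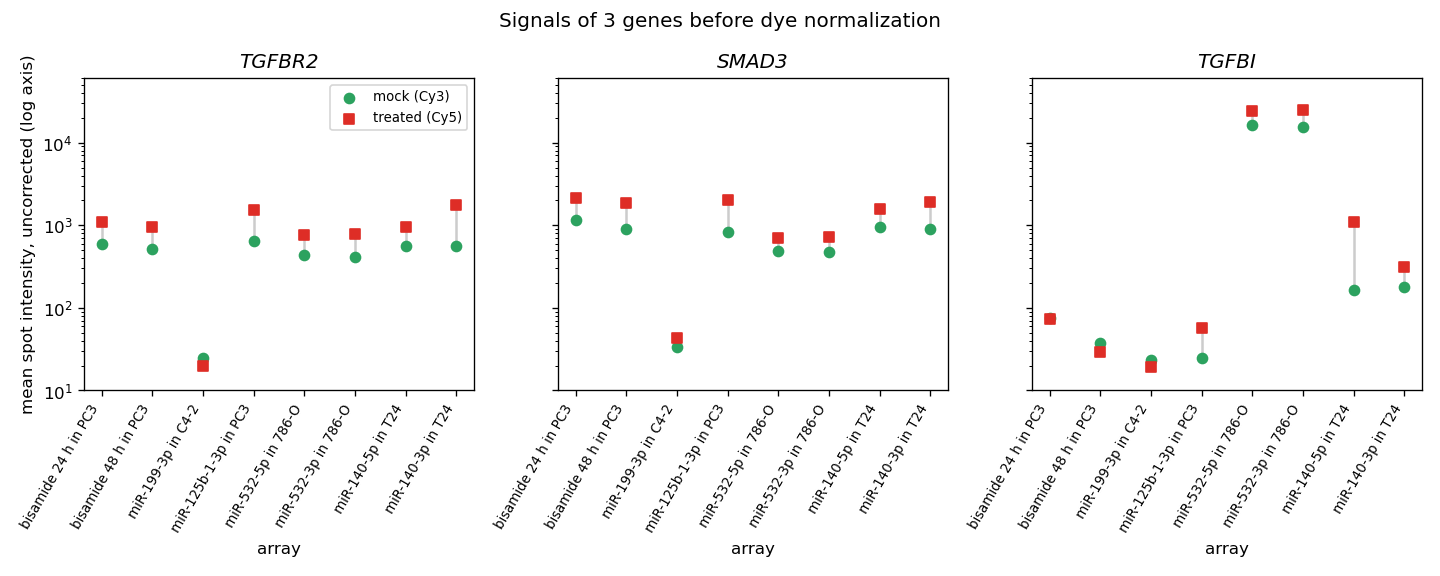
Uncorrected mean spot intensities (y axis, log scale) of TGFBR2, SMAD3 and TGFBI on the 8 arrays (x axis), with mock RNA in Cy3 as circles and treated RNA in Cy5 as squares. TGFBI in T24 goes from 166 to 1097 under the 5p strand and from 178 to 310 under the 3p strand of miR-140.

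SMAD2 and SMAD3 are the substrates of the receptor, and they did not move alike. SMAD3, read at chr15:67487391-67487450 (plus strand), had log2 ratios of 0.64 with miR-532-5p, 0.48 with miR-125b-1-3p and 0.22 with bisamide for 48 h. On the miR-140-3p, miR-532-3p, miR-199-3p and bisamide 24 h arrays the values were 0.21, 0.16, 0.11 and 0.032. It was below 0 only with miR-140-5p, at -0.10. With miR-125b-1-3p in PC3 the mock signal was 837 and the treated signal 2026. The SMAD3 mock signals of the bisamide arrays were 1143 and 892. The spread of the SMAD3 mock level over the PC3 mocks, an SD of 0.24 on the log2 scale over 3 readings, was larger than that of most genes, as 7.95% of genes had a larger one. With miR-532-5p, SMAD3 fell just under 0.5, to 0.48, when its median over the other arrays was taken off.

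SMAD2 had 3 probes, at chr18:45348228-45348287, chr18:45360188-45360247 and chr18:45347319-45347378 (minus strand). The brightest ranged from -0.12 with miR-140-5p to 0.026 with miR-125b-1-3p over all 8 arrays. The next ranged from -0.25 with miR-140-5p to 0.12 with bisamide for 24 h. The third was not above background in both channels on any array. The largest gap between SMAD2 probes was 0.33, with miR-140-5p.

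SMAD4, the partner that all receptor-driven SMADs share, was represented by a probe at chr18:48611270-48611329 (plus strand). It stood apart in C4-2 alone, where its signal went from 97.2 in mock to 207 with miR-199-3p, a log2 ratio of 0.46. On the other 7 arrays it lay between -0.14 and 0.038. The second probe, at chr18:48605060-48605119, read 33.5 and 40.5 in C4-2, a log2 ratio of 0.061. The probes of SMAD4 thus differed by 0.40 on that array.

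SMAD7, the inhibitor that acts back on the receptor, was above 0 on all 8 arrays, from 0.061 with miR-125b-1-3p to 0.28 with miR-532-5p, but its PC3 values turned to -0.18, -0.28 and -0.20 when arrays were centred and the median of measured genes was taken off. With its median over the other arrays taken off it was below 0 on 5 of 8 arrays, from -0.088 to -0.0068. Among 12579 genes measured on every array, 7.57% were above 0 on all of them. The probe lay at chr18:46446782-46446841 (minus strand). Its signals were 99.5 and 109 with miR-532-5p, 94 and 135 with miR-532-3p, 77.5 and 121 with miR-140-5p, and 79.4 and 149 with miR-140-3p. In PC3 its mock signal was near background, at 29.2 to 37.3. No SMAD7 value passed 0.5.

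TGFBI was read at chr5:135399343-135399402 (plus strand), and no other member differed so much between lines or treatments. In T24 its mock signals were 166 beside miR-140-5p and 178 beside miR-140-3p, and its treated signals were 1097 and 310. The log2 ratios were thus 1.88 for the 5p strand and 0.092 for the 3p strand, against nearly the same mock signal. Under the 9 other ways of processing, miR-140-5p gave 1.88 to 2.47 and miR-140-3p gave 0.059 to 0.66.

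In 786-O TGFBI was already among the bright probes, with mock signals of 16272 and 15404, and its spot was saturated on 0 of 8 arrays. The treated signals were 24046 with miR-532-5p and 24644 with miR-532-3p, which differ by little. After normalization the log2 ratios were 0.52 and -0.23. When each array was centred on its median in place of loess they became 0.58 and 0.67, so the order and the sign of miR-532-3p turn with that choice. After the median of all measured genes was taken off as well, they were 0.61 and 0.49.

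In PC3 TGFBI was dim. Its mock and treated signals were 76 and 74.2 with bisamide for 24 h, 37.1 and 29.1 with bisamide for 48 h, and 24.6 and 57.3 with miR-125b-1-3p. The bisamide log2 ratios were -0.39 and -0.24. At 24 h 1.1% of measured genes were lower, and at 48 h 5.33% were. With the scanner's own ratio they were -0.81 and -1.25, and they were below -0.5 under 6 of 9 other settings at 24 h and 7 of 9 at 48 h. The 3 mock signals lay further apart than mock and treated did on either bisamide array. With miR-125b-1-3p only the treated channel was above background, and TGFBI was at least 1.37-fold higher, a bound that is open to dye bias. Its log2 ratio there was 0.52, and 0.23 to 3.10 under the 9 other settings, highest with the scanner's own ratio. It was past 0.5 under 8 of these 9. In C4-2, at 23.1 and 19.3, it was not well above background in either channel.

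**Figure D3:**
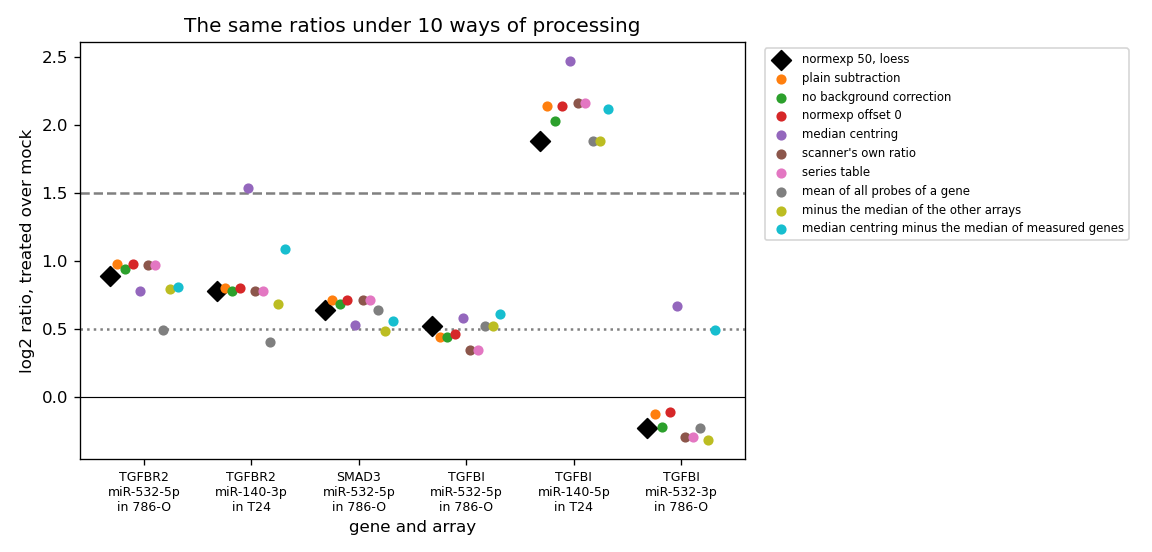
Log2 ratios of treated over mock RNA (y axis) for the 5 values past 0.5 and for TGFBI with miR-532-3p (x axis), under the processing used here (diamonds) and 9 others (circles). TGFBI with miR-140-5p stays above 1.5 throughout, whereas TGFBI with miR-532-3p lies between -0.32 and 0.67.

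Counts of members were read against all genes measured on the same array. With bisamide for 24 h, 0 of 9 members were below -0.5 and 0 above 0.5, against 0.400% and 1.05% of all measured genes. With bisamide for 48 h it was 0 and 0 of 8, against 0.878% and 0.915%. With miR-199-3p it was 0 and 0 of 4, against 2.73% and 1.76%. With miR-125b-1-3p it was 0 and 0 of 8, against 0.883% and 1.77%, so these 4 arrays held no measured member past 0.5. TGFBI read 0.52 with miR-125b-1-3p but was not counted, as its mock channel was not above background.

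With miR-532-5p, 3 of 9 members (TGFBR2, SMAD3 and TGFBI) were above 0.5, against 3.60% of all genes, and 0 were below -0.5, against 3.67%. With miR-532-3p none of 9 was above 0.5 or below -0.5, against 1.71% and 3.84%. With miR-140-5p, 1 of 8 was above 0.5 (TGFBI), against 1.74%, and 0 below -0.5, against 2.89%. With miR-140-3p, 1 of 8 was above 0.5 (TGFBR2), against 0.998%, and 0 below -0.5, against 1.09%. These counts describe members that were chosen with such values known. The member medians ran from -0.064 with miR-532-3p to 0.15 with miR-140-3p, and those of all genes from -0.00017 to 0.017. The contrast between the 786-O strands depended in part on the normalization. Under median centring TGFBR2, SMAD3 and TGFBI all passed 0.5 for either strand. The 5p strand then gave 0.78, 0.53 and 0.58, and the 3p strand 0.89, 0.59 and 0.67. Once the median of measured genes was also removed, the values were 0.81, 0.56 and 0.61 against 0.72, 0.42 and 0.49. The scanner's own ratio kept the 5p strand higher, at 0.97, 0.71 and 0.34 against 0.48, 0.15 and -0.30.

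Past 1.5 in either direction lay 0.0780% and 0.0368% of measured genes with bisamide for 24 h and 48 h, 0.121% with miR-199-3p and 0.0107% with miR-125b-1-3p. In 786-O the shares were 0.102% for the 5p strand and 0.149% for the 3p strand. With miR-140-5p it was 0.142%, and TGFBI was the member among them. With miR-140-3p it was 0.0114%.

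By the brightest probe of each member, the level in mock cells ranged between lines by 0.36 to 8.42 on the log2 scale. The size of the largest ratio on any array was 0.12 to 1.88 with the processing used here. A range over all lines and a single ratio are unlike measures, so they are not ranked against each other. Levels are log2 Cy3 signals, quantile normalized over the 8 mock channels, and values near 5.8 are background. They compare lines for 1 probe and not genes with each other. Of the 9 members, 7 differed by over 1.0 between the highest and the lowest line. Among all genes above background in at least 1 mock channel, 26.3% did. The median gene had an SD of 0.0756 over the 3 PC3 mocks. A single C4-2 array and possibly shared mocks in 786-O and T24 leave the spread within those lines unknown.

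TGFBI covered the widest range. Its level was 14.19 and 14.27 in 786-O, 7.47 and 7.52 in T24, and 5.80 to 6.54 in PC3, where 2 of 3 mocks were above background. C4-2 was at 5.81 and not above background, which overlaps PC3. The mean of 786-O lay 6.73 above that of T24, a 106-fold difference. Against C4-2 the level in 786-O was at least 320-fold higher and that in T24 at least 3-fold higher.

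TGFBR2 followed the order 786-O at 9.50 to 9.59, T24 at 8.99 to 9.03, PC3 at 8.61 to 8.78 and C4-2 at 5.88. C4-2 was not above background, and PC3, T24 and 786-O were at least 6.95-fold, 8.59-fold and 12.4-fold higher than it. After normalization the readings of neighbouring lines did not overlap. Before it, TGFBR2 read 412 to 441 in 786-O, below T24 at 557 to 559 and PC3 at 513 to 641. The order of 786-O, T24 and PC3 thus rests on the normalization. The step between T24 and PC3 was 0.31, against an SD of 0.086 among the PC3 readings.

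SMAD3 was also low in C4-2, at 6.22, although there it was above background. It stood at 9.16 to 9.63 in PC3, 9.70 to 9.72 in 786-O and 9.67 to 9.79 in T24. T24 and 786-O overlapped. Before normalization SMAD3 read 472 to 485 in 786-O, below PC3 at 837 to 1143 and T24 at 910 to 958. The gap of 3.17 between PC3 and C4-2 was far wider than the spread in PC3.

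TGFB1 followed the order 786-O, T24, PC3 and C4-2, with means of 7.83, 7.66, 7.18 and 5.96. Before normalization 786-O read 117 to 118, below PC3 at 146 to 156 and T24 at 196 to 197. C4-2 was below background, and PC3 was at least 2.34-fold higher. TGFB2 was above background on every mock reading only in 786-O, at 7.02, and was 5.99 in PC3, 5.81 in T24 and 5.75 in C4-2. It was at least 2.24-fold higher in 786-O than in T24.

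SMAD7 was highest in 786-O at 7.55, then T24 at 6.69, C4-2 at 6.39 and PC3 at 5.94. It was the only member for which PC3 and not C4-2 was lowest. SMAD4 means were 8.65 in 786-O, 8.09 in T24, 7.91 in PC3 and 7.59 in C4-2, and T24 lay within the PC3 readings of 7.70 to 8.13. Before normalization SMAD4 read 216 to 219 in 786-O, below T24 at 275 to 290 and PC3 at 257 to 348. SMAD2 and TGFBR1 differed little, by 0.36 and 0.39 over the 4 lines. For TGFBR1 the readings of PC3 and T24 overlapped.

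**Figure D4:**
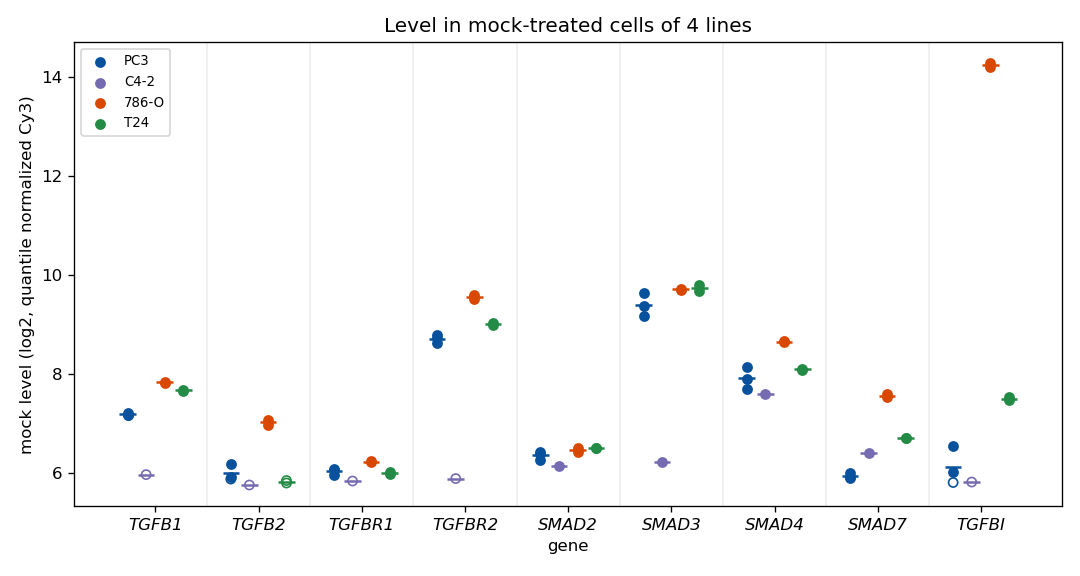
Level of the 9 genes (x axis) in mock-treated cells, as log2 quantile normalized Cy3 signal (y axis), 1 point per mock channel (3 PC3, 1 C4-2, 2 786-O, 2 T24) and a bar at each line's mean. Open points were not well above background, and C4-2 is open for TGFB1, TGFB2, TGFBR1, TGFBR2 and TGFBI.

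In C4-2, 4 of 9 members were above background, against 36.5% of all genes on the array. In PC3, 786-O and T24 the counts were 7, 9 and 8 of 9 on every mock reading, against 41%, 35.1% and 39.4%. C4-2 was also the line with VIM at 453, CDH1 at 793 and no CDH2 or ZEB1 above background. Of the other epithelial markers, EPCAM read 681 and KRT19 789 there. KRT19 was higher in PC3, at 12785 to 18251, and in 786-O, at 1024 to 1086, and was not above background in T24. Of 21 other response genes, 14 were above background in C4-2, 17 in PC3, 17 in 786-O and 14 in T24. IL11, a cytokine gene, and TNC, which encodes the matrix protein tenascin-C, were not above background in C4-2 and were so in the other lines. In turn COL1A1, FN1 and SNAI2 were above background in C4-2 and not in the T24 mocks.

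Another 55 genes of the pathway were read as 4 lists: 10 ligands and latent complex genes, 10 other receptors, 14 other SMADs and modulators, and 21 response genes. Between 37 and 48 of them were measured per array. On the bisamide arrays 0 of 48 were below -0.5, and 1 of 48 was above 0.5 at each time, against the 0.400% and 0.878% of all measured genes below and the 1.05% and 0.915% above that are given earlier. These were CDKN2B, a cell cycle inhibitor, at 0.55 after 24 h, and ID1, an inhibitor of helix-loop-helix factors, at 0.58 after 48 h. With miR-199-3p 2 of 37 were above 0.5 and 0 below -0.5, against 1.76% and 2.73% of all measured genes. PMEPA1, a brake on the pathway that TGF-beta induces, was the higher of them at 1.03, from 159 in mock to 530. THBS1, which can free latent TGF-beta, was at 0.63.

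With miR-125b-1-3p, 6 of 46 were above 0.5 and 0 below -0.5, against 1.77% and 0.883% of all measured genes. The medians of the 4 lists there were 0.17, 0.022, 0.087 and 0.14, against 0.016 for all genes. The 6 were INHBA at 0.73, ID3 at 0.69, IL11 at 0.67, COL1A1 at 0.65, PMEPA1 at 0.59 and BAMBI at 0.54. INHBA encodes the activin A subunit, COL1A1 a collagen and BAMBI a decoy receptor. The members SMAD3 at 0.48 and TGFBR2 at 0.46 lay just under 0.5 on the same array, whose mock differed from the other PC3 mocks as given above.

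In 786-O few list genes passed 0.5 in size, and those that did lay in both directions on each array. With miR-532-5p, 1 of 39 was above 0.5, ID2 at 0.68, and 2 were below -0.5, against 3.60% and 3.67% of all measured genes. INHBA was at -0.86 and THBS1 at -0.60. With miR-532-3p, 2 of 39 were above 0.5, INHBA at 0.89 and IL11 at 0.57, and 1 was below -0.5, ID1 at -0.57, against 1.71% and 3.84%. INHBA thus read 782 in treated cells with miR-532-5p and 4494 with miR-532-3p, against 1555 and 1540 in mock.

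In T24 miR-140-5p had 5 of 43 list genes below -0.5 and 3 above 0.5, against 2.89% and 1.74% of all measured genes. All 3 ID genes measured were lower: ID2 at -1.09, ID1 at -0.88 and ID3 at -0.79. ID1 went from 4258 to 4618 in uncorrected signal, and its ratio turned to 0.074 with median centring. ID2 went from 394 to 265 and ID3 from 368 to 313, so their treated signals were lower before any normalization, and with median centring they read -0.55 and -0.24. NEDD4L, a ubiquitin ligase that acts on SMADs and receptors, was at -0.98 and ACTA2, smooth muscle actin, at -0.62. IL11 at 0.59, INHBA at 0.52 and PMEPA1 at 0.50 were higher, on the same array as TGFBI. With miR-140-3p, 0 of 42 were above 0.5, and ID1, at -0.58, was the only gene below -0.5, against 0.998% and 1.09%. Its uncorrected signal went from 4188 to 5753, and its ratio turned to 0.40 with median centring. Of the list genes named, PMEPA1 with miR-199-3p and ID2 with miR-140-5p follow the rule of a size above 1.0, and the rest were named after their values were seen.

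**Figure D5:**
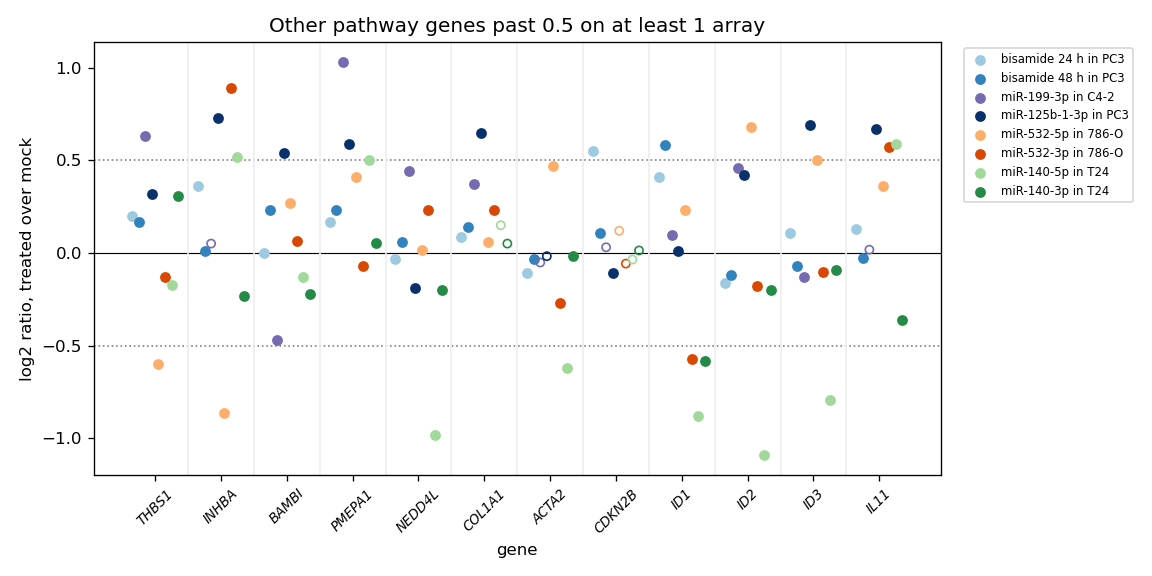
Log2 ratios of treated over mock RNA (y axis) of the 12 list genes past 0.5 in size on at least 1 array (x axis), coloured by group, with open points not well above background in both channels. ID1, ID2 and ID3 with miR-140-5p lie between -1.09 and -0.79.

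Among 10320 named genes measured on all 8 arrays, the 3 whose ratios were most like those of TGFBI over the arrays were POMP, PSMA2 and PFDN4, with Pearson's r of 0.985, 0.982 and 0.956 and Spearman's rho of 0.905, 0.952 and 0.857. Those most unlike it were CHCHD4, PARS2 and TBC1D2, with r of -0.995, -0.981 and -0.98 and rho of -0.976, -0.952 and -0.905. The points share mocks within a line, and TGFBI was not measured in both channels on 2 of the 8 arrays. The 6 genes are the extremes of 10320 over 8 arrays, so their r is high in part through the picking, and no link was tested. With miR-140-5p they ranged from -0.58 for CHCHD4 to 0.53 for PFDN4, and PSMA2 was at 0.016. Without that array r was 0.929 for POMP, 0.935 for PSMA2 and 0.782 for PFDN4. For CHCHD4, PARS2 and TBC1D2 it was -0.987, -0.915 and -0.903. With median centring r was between 0.485 and 0.62 for the first 3 genes and between -0.711 and -0.498 for the last 3.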

How the data were processed

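RNA of treated (Cy5) and mock-treated (Cy3) cells of 4 lines was read on 8 arrays, 1 per group, on the same slide. Per the file headers, the authors read spot intensity with Agilent Feature Extraction, and the deposited series table holds the scanner's log10 ratio. The columns of intensity were deposited without normalization. Coordinates are those of GRCh37 in the files.

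Intensities were corrected here with normexp (limma 3.58.1, R 4.3.3, offset 50) and loess within array, which was tested on simulated data. Control and outlier spots (126 to 181 per array) were left out. A gene was represented by its brightest probe, and 10 of 13 member probes matched a RefSeq accession. With 1 array per group no p-value was computed. Bounds within an array came from loess and Aquantile channel values and bounds between lines from the quantile normalized mock levels, with a floor at the lowest signal well above background. The precision is limited by the number of arrays. Repeat spots of 300 probes had an SD of 0.0389 to 0.0527 on the log2 scale.

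The members, lists and named-gene rule were chosen with earlier results of these data known. Some items of these lists are not reported here. The rule named all 9 members, list genes past 1.0 on an array (at most 3 per direction and list), and the 3 genes most like and most unlike TGFBI. Alternatives were other background corrections, median centring, the scanner's ratio, the series table, the mean over probes, other filters and a size of 1.0, and for mock levels other scalings and leaving out each PC3 mock.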

Additional observations from a re-analysis of the deposited data

Results flagged for a closer look

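Values of 1 member on 2 arrays of the same line were compared in 25 pairs (the bisamide times, the miR-532 strands and the miR-140 strands). In 2 pairs the signs were opposite and both sizes were above the 0.0756 that the PC3 mocks of the median gene vary by. TGFBI in 786-O was at 0.52 with miR-532-5p and at -0.23 with miR-532-3p, a difference of 0.75. SMAD3 in T24 read -0.10 for the 5p strand of miR-140 and 0.21 for its 3p strand, so the former was -0.31 relative to the latter. Both SMAD3 values lie within 0.24, the SD of its own level over the PC3 mocks. That SD is of mock levels in another line, an unlike measure. The SMAD3 levels of the 2 T24 mocks, which may share their RNA, differed by 0.12. Neither difference was tested, as each group had 1 array. With median centring all 4 values were above 0: TGFBI at 0.58 and 0.67, SMAD3 at 0.65 and at 1.01.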

How the results depend on the processing

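The count of member values past 0.5 was 5 (5 higher, 0 lower). It was 11 (8 higher, 3 lower) with plain subtraction and 11 (8 and 3) with an offset of 0. With the scanner's ratio it was 12 (6 and 6), and so it was with the deposited series table. Median centring gave 28 (28 and 0), and it moved the median of all measured genes by -0.033 to 0.45. With that median taken off, an alternative added after seeing the data, it was 14 (13 and 1). The mean of all probes gave 3, and a size of 1.0 gave 1. No background correction gave 7 (5 and 2) and the value minus the other arrays gave 6 (4 and 2). The lower calls were of TGFBI and TGFBR1 alone. The count past 1.5 was 1, and 2 with median centring, where TGFBR2 with miR-140-3p reached 1.54. The cause of these shifts was not tested. Members whose mock level differed by over 1.0 stayed at 7 to 7 when any PC3 mock was left out. The sizes of the mock-level results did depend on the scaling. Of 9 such results, 6 were counted as changed with loess and Aquantile. All 9 were with scaling to the 75th percentile of the scanner's signal, and all 9 with that of the uncorrected signal. In each case 0 were reversed, but a range between lines is never below 0, so it could not reverse. This tells nothing about the order of the lines. With median centring ID1 turned to 0.074 with miR-140-5p and to 0.40 with miR-140-3p. No paired analysis was possible because every treatment was read on a single array. Probes near background, such as TGFBR1, TGFB2, SMAD2 and TGFBI in PC3, limit what could be seen of small changes.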
